A study of Mus musculus with 6 samples.

Results

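The DYRK kinases, their relatives the HIPK kinases, the DYRK adaptor gene Dcaf7 and the coactivator gene Wbp2 were described in mouse liver after adenoviral delivery of Dyrk1b. They were taken from the deposited table by symbol (Dyrk1b, Dyrk1a, Dyrk2, Dyrk3, Dyrk4, Hipk1, Hipk2, Hipk3, Dcaf7 and Wbp2), which found 10 of its 22274 genes. All 6 samples were livers of strain C57. In 3 samples (Ad-Dyrk1b) the infecting adenovirus overexpressed mouse Dyrk1b, and in the other 3 (Ad-EGFP) a control adenovirus was used, so both groups had received a virus. The promoter in the virus, its dose, the time from infection and the age and sex of the animals are not stated in the labels, and neither is whether each sample was a separate mouse. P-values therefore measure only how far these 6 libraries vary, and some of that spread may be technical.

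DYRK kinases (dual-specificity tyrosine-regulated kinases) phosphorylate a tyrosine of their own activation loop while they are made and then act on serines and threonines of other proteins. DYRK1A and its close relative DYRK1B act largely in the nucleus and are brought to substrates by the adaptor DCAF7, a WD-repeat protein that also binds HIPK kinases. DYRK1B, also called Mirk, is known for holding cells in quiescence and for a role in muscle differentiation, and inherited changes of human DYRK1B are linked to metabolic syndrome. WBP2 is a WW-domain-binding protein that acts as a coactivator of steroid hormone receptors and works with YAP and TAZ, the effectors of the Hippo pathway. RNA sequencing measures none of these protein contacts.

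The coding sequence of the activation loop is printed here to show how far the kinase genes differ. Whether reads of a delivered Dyrk1b were counted under a relative was not tested. Each line holds 15 codons in the 5′ to 3′ direction that end at the conserved proline and glutamate after the loop, from the longest principal transcript in GENCODE M21 (GRCm38, the same build as mm10). Capitals mark the first tyrosine codon of the window and, where there is one, the tyrosine codon that lies 2 codons after it.
Dyrk1b: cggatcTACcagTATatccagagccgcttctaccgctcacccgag
Dyrk1a: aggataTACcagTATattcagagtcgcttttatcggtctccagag
Dyrk2: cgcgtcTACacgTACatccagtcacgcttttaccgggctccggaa
Dyrk3: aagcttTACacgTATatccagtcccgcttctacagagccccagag
Dyrk4: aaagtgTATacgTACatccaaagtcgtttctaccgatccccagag
Hipk1: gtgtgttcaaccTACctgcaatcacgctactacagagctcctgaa
Hipk2: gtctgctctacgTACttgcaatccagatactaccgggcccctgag
Hipk3: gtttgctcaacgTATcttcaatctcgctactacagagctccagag
The pair of tyrosine codons stood in 5 of 5 DYRK genes and in 0 of 3 HIPK genes. The Dyrk1b window is bases 805 to 849 of a coding sequence of 1887 bases and runs from 28184525 to 28185109 on the plus strand of chromosome 7, across an intron. Of its 45 bases, 36 are the same in Dyrk1a, 32 in Dyrk3, 31 in Dyrk2 and 30 in Dyrk4. In Hipk3, Hipk2 and Hipk1 the same count was 24, 23 and 21. Over whole annotated transcripts, the longest exact run that Dyrk1b shares with Dyrk1a, Dyrk3, Dyrk4 or Hipk2 is 17 bases, and with each of the other members it is 11 to 14 bases. The labels state no read length and name no aligner or counter, so these runs do not tell how reads were assigned.

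Dyrk1b (ENSMUSG00000002409, chromosome 7, 28179469 to 28187294, plus strand, mm10) is the gene on the virus, so its level checks the labels. It had 2918, 5046 and 4267 counts in Ad-Dyrk1b libraries 1, 2 and 3 (numbered by replicate), and 163, 203 and 173 counts in Ad-EGFP libraries 1, 2 and 3. Per length and depth these are 62.2, 101 and 96.5 FPKM against 3.81, 4.97 and 4.16 FPKM (counts scaled to transcript length and library total). The lowest Ad-Dyrk1b library lay far above the highest control, and library 1 was the lowest of its group. The log2 fold change of Ad-Dyrk1b over Ad-EGFP was 4.49 ± 0.24 (SE), which is 22.4-fold with a 95% interval of 15.4 to 32.5 (edgeR quasi-likelihood test, FDR = 1.33e-05). The FDR of a gene is its p-value adjusted by Benjamini-Hochberg over the 13201 genes tested, and a gene is called higher or lower where it is under 0.05.

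Viral and chromosomal Dyrk1b transcripts cannot be told apart in the counts. Counts and FPKM together imply the transcript length that was used for each library, since FPKM is the count divided by transcript length and library total. For Dyrk1b the implied length was 2454, 2504 and 2473 bases in Ad-Dyrk1b libraries 1, 2 and 3, and 2385, 2334 and 2400 bases in Ad-EGFP libraries 1, 2 and 3. The lengths of the groups did not overlap (exact two-sided permutation test, p = 0.1, the smallest that 3 against 3 allows). GENCODE M21 lists 3 Dyrk1b transcripts, of 2534, 2523 and 2018 bases, so the Ad-Dyrk1b libraries stood nearer to the longer forms. Implied lengths were longer in all Ad-Dyrk1b libraries, beyond the rounding of FPKM, in 2.60% of 10573 genes at 1 FPKM or more in every library, and shorter in 3.46%. Dyrk1b was the only member among the 8 with such levels whose lengths did not overlap. For Wbp2 they ran from 1812 to 1826 bases, where 1826 bases is the length of its longest annotated transcript. The labels do not say how the length was set or how reads were counted, and since the implied lengths vary between libraries, the counts may be rounded estimates over isoforms.

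**Figure D1:**
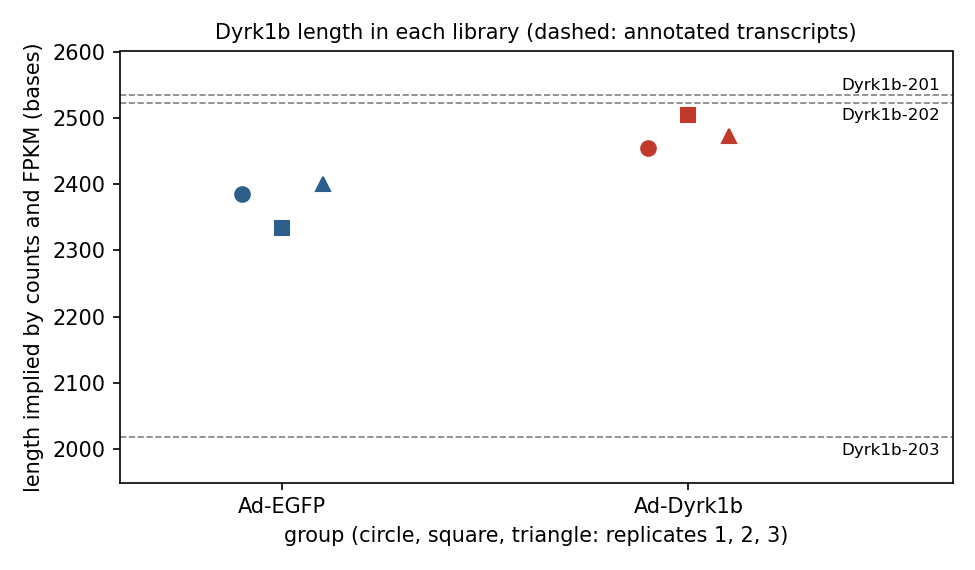
Transcript length of Dyrk1b implied by the deposited counts and FPKM, in bases, for each library of the Ad-EGFP (blue) and Ad-Dyrk1b (red) groups, with dashed lines at the lengths of the 3 annotated transcripts. The Ad-Dyrk1b libraries sit at 2454 to 2504 bases and the Ad-EGFP libraries at 2334 to 2400 bases, and the axis does not start at 0.

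None of the 6 nearest tested genes beside the Dyrk1b locus was called by edgeR. Fbl, which encodes the nucleolar methyltransferase fibrillarin, ends 200 bases before the start of Dyrk1b and had a log2 fold change of -0.10 ± 0.13 (edgeR FDR = 0.642), with mean levels of 29.0 FPKM in the Ad-Dyrk1b group against 32.9 FPKM in the control group. Psmc4 (a proteasome subunit), Zfp850 (a zinc finger gene) and, on the other side, Eid2, Eid2b and Timm50 (an inner mitochondrial membrane translocase subunit) were not called either. Their log2 fold changes ran from -1.02 (Eid2) to 0.13 (Timm50), with edgeR FDR values from 0.0986 to 0.782.

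In control livers the kinases covered a wide range of levels. The order by mean FPKM in Ad-EGFP was Wbp2 (65.6), Hipk3 (14.3), Hipk1 (9.60), Dyrk1a (5.71), Dcaf7 (5.65), Dyrk2 (5.35), Dyrk1b (4.31), Dyrk3 (3.36), Hipk2 (0.683) and Dyrk4 (0.0233). The ranges of Dyrk1a, Dcaf7 and Dyrk2 overlapped from each to the next, as did those of Dyrk2 and Dyrk1b, and every other pair of neighbours in this order was apart in all 3 libraries. Dyrk1b was thus the seventh of 10 in control livers and below Dyrk1a in every control library, at 0.587, 0.819 and 0.910 times its level. In Ad-Dyrk1b livers it was the first, above Wbp2 in all 3 libraries, and stood at 13.5, 25.3 and 23.6 times the level of Dyrk1a. The other 9 kept the control order, except that Dyrk1a came after Dcaf7 and Dyrk2, with overlapping ranges for Dcaf7 and Dyrk2 and for Dyrk2 and Dyrk1a.

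**Figure D2:**
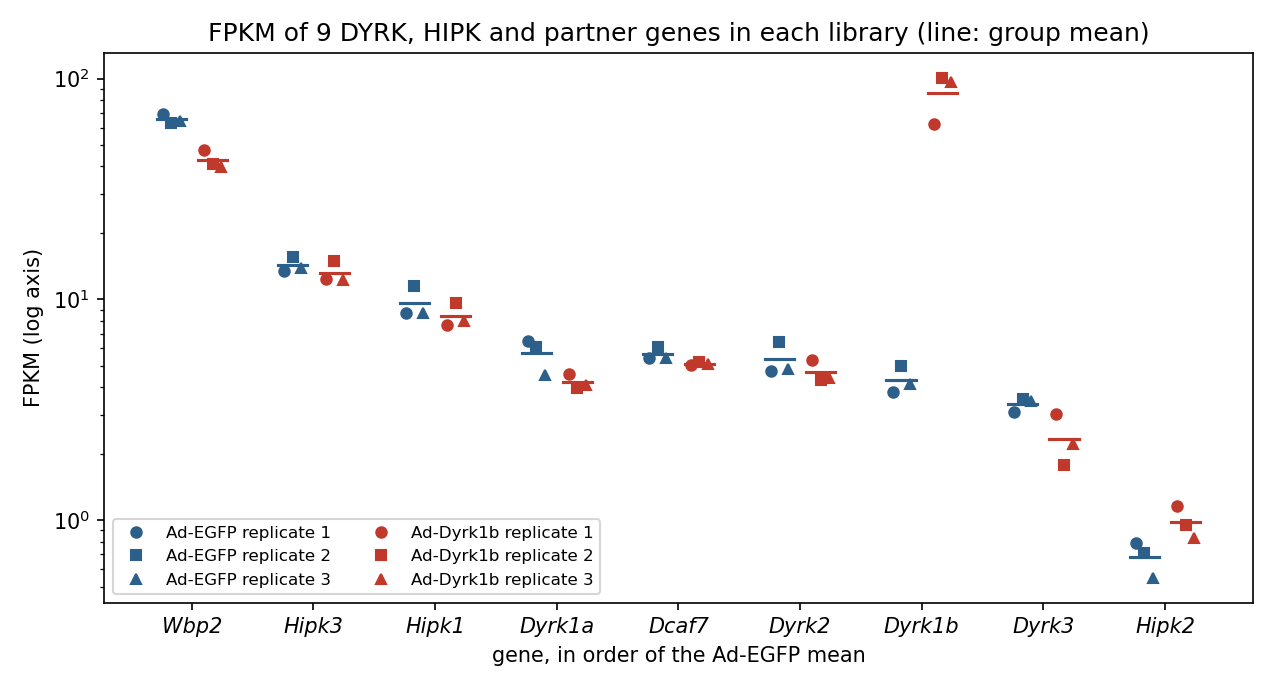
FPKM on a log axis for 9 of the genes in each of the 6 libraries (blue Ad-EGFP, red Ad-Dyrk1b, symbols by replicate, lines at group means), ordered by the Ad-EGFP mean; Dyrk4, which is listed at 0 in 4 libraries, is left out. Dyrk1b moves from 3.81 to 4.97 FPKM up to 62.2 to 101 FPKM, Wbp2 lies lower in the Ad-Dyrk1b libraries, and none of the other 7 genes was called.

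Wbp2, the coactivator gene (ENSMUSG00000034341, chromosome 11, 116078573 to 116086995, minus strand), was lower in Ad-Dyrk1b livers. It had 1652, 1490 and 1295 counts in Ad-Dyrk1b libraries 1, 2 and 3, and 2268, 2009 and 2035 counts in Ad-EGFP libraries 1, 2 and 3. Its level was 47.4, 41.1 and 39.7 FPKM against 69.4, 63.0 and 64.3 FPKM. The groups did not overlap, and the highest library of each group was its library 1. The mean was 42.7 ± 4.10 FPKM in Ad-Dyrk1b against 65.6 ± 3.38 FPKM in Ad-EGFP (SD, n = 3 each). Wbp2 fell by 0.54 ± 0.10 on the log2 scale, to 0.688 times the control level with a 95% interval of 0.590 to 0.802 (edgeR FDR = 0.00522). The authors' deposited table gives a log2 ratio of -0.62 and an FDR of 0.000174 for Wbp2. In the authors' deposited table Dyrk1b is the only other member with an FDR under 0.05, and the next, Dyrk3, has 0.213. Of all tested genes, 6.17% had a log2 fold change as low as that of Wbp2 or lower, and 4.81% were called lower. In bulk liver, fewer cells that express a gene and less of its RNA per cell cannot be told apart.

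Apart from Dyrk1b, Wbp2 was the 1 gene called of the 8 members tested, where 12.2% of all tested genes were called in either direction (7.36% higher). This share is near the background. Their median log2 fold change was -0.10, against -0.00498 over all tested genes, and 7 of the 8 lay below 0, as did 50.6% of all tested genes. In FPKM, the groups did not overlap in 5 of the 9 tested members, 2 of them higher and 3 lower, where 32.8% of the tested genes did not overlap (10.9% higher and 21.9% lower).

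**Figure D3:**
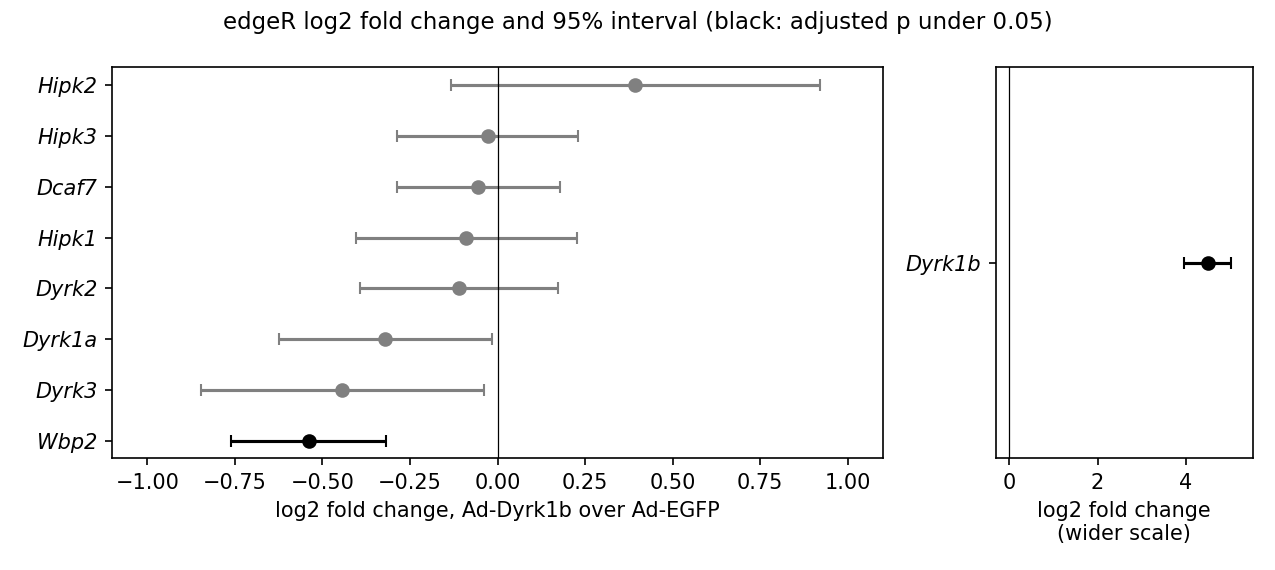
Log2 fold change of Ad-Dyrk1b over Ad-EGFP (point) with its 95% interval (bar) for the 9 tested members, from the edgeR fit over all genes; Dyrk1b is drawn on a wider scale. Wbp2 at -0.54 and Dyrk1b at 4.49 are the genes called at an FDR under 0.05, drawn in black.

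The closest relative, Dyrk1a (chromosome 16, 94570010 to 94695517, plus strand), is known for its dosage effects in Down syndrome. It stood at 4.61, 3.98 and 4.08 FPKM in Ad-Dyrk1b libraries 1, 2 and 3, and at 6.49, 6.07 and 4.57 FPKM in Ad-EGFP libraries 1, 2 and 3. Ad-EGFP library 3 lay below Ad-Dyrk1b library 1, so the groups overlapped. The log2 fold change was -0.32 ± 0.14 with a 95% interval of -0.62 to -0.02 (unadjusted p = 0.0404, edgeR FDR = 0.155), and it was not called.

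Dyrk3 (chromosome 1, 131127455 to 131138340, minus strand) encodes a kinase known for dissolving stress granules and other condensates. It stood at 3.04, 1.78 and 2.21 FPKM in Ad-Dyrk1b libraries 1, 2 and 3, and at 3.10, 3.54 and 3.45 FPKM in Ad-EGFP libraries 1, 2 and 3. All Ad-Dyrk1b libraries were below all controls, but library 1 only just. With a log2 fold change of -0.44 ± 0.19 and a 95% interval of -0.85 to -0.04 it was not called (unadjusted p = 0.0337, edgeR FDR = 0.139). Without Ad-Dyrk1b library 1 the log2 fold change was -0.64 and without Ad-Dyrk1b library 2 it was -0.30, the extremes with 1 library left out, and neither was called (edgeR FDR = 0.0657 and 0.365).

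Dyrk2 (chromosome 10, 118855603 to 118870209, minus strand) encodes a kinase that phosphorylates p53 and is the scaffold of a ubiquitin ligase. It stood at 5.31, 4.33 and 4.39 FPKM in Ad-Dyrk1b libraries 1, 2 and 3, and at 4.76, 6.43 and 4.85 FPKM in Ad-EGFP libraries 1, 2 and 3. The groups overlapped, and the log2 fold change was -0.11 ± 0.13 with a 95% interval of -0.39 to 0.17 (edgeR FDR = 0.619). Dyrk4 (chromosome 6, 126876020 to 126921839, minus strand), best known from testis, had 1 count in Ad-Dyrk1b library 3, 1 count in Ad-EGFP library 1 and 0 in the other libraries. It was not tested, and 3 counts, the upper limit that a count of 0 allows, correspond to 0.150 to 0.173 CPM (counts scaled to the library total) in these libraries.

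**Figure D4:**
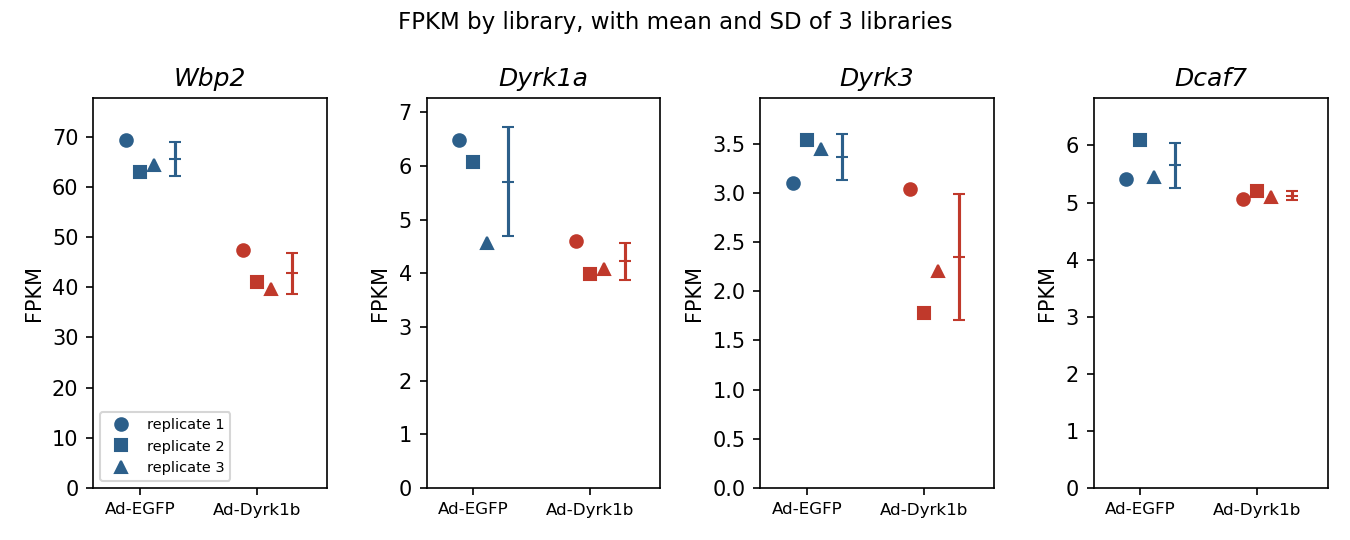
FPKM of Wbp2, Dyrk1a, Dyrk3 and Dcaf7 in each library (blue Ad-EGFP, red Ad-Dyrk1b, symbols by replicate), with the mean and SD of 3 libraries beside the points and axes from 0. Wbp2 is apart by the widest margin (47.4 FPKM at most in Ad-Dyrk1b, 63.0 FPKM at least in Ad-EGFP), Dyrk1a overlaps, and Dyrk3 and Dcaf7 are apart by less than 0.3 FPKM.

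The DYRK genes other than Dyrk1b summed to 13.0, 10.1 and 10.7 FPKM in Ad-Dyrk1b libraries 1, 2 and 3, and to 14.4, 16.0 and 12.9 FPKM in Ad-EGFP libraries 1, 2 and 3. The means differed by -3.19 FPKM, and Ad-Dyrk1b library 1 lay just above Ad-EGFP library 3 (exact two-sided permutation test, p = 0.2, where 0.1 is the smallest that 3 against 3 allows). Dyrk1b made up 20.9% to 24.4% of the summed FPKM of the 5 DYRK genes in Ad-EGFP libraries and 82.8% to 90.9% in Ad-Dyrk1b libraries. Of the 8 DYRK and HIPK genes together it made up 9.94% ± 0.606 in Ad-EGFP and 71.2% ± 5.79 in Ad-Dyrk1b (SD, n = 3 each). These sums hold transcripts only, and the activity of the kinases was not measured.

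**Figure D5:**
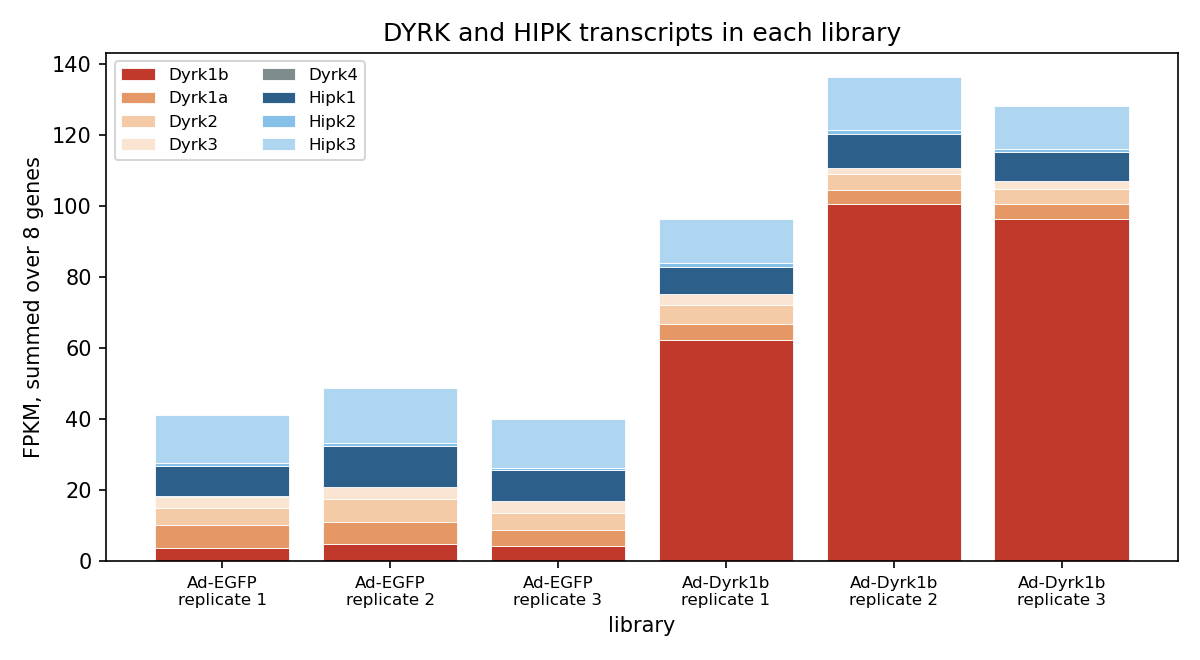
FPKM of the 5 DYRK and 3 HIPK genes, stacked for each library, with the vertical axis from 0. The total rises from 40.0 to 48.8 FPKM in Ad-EGFP libraries to 96.3 to 136 FPKM in Ad-Dyrk1b libraries, and the Dyrk1b part alone (red) rises from 3.81 to 4.97 FPKM up to 62.2 to 101 FPKM.

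Within the Ad-Dyrk1b group, library 1 had the lowest Dyrk1b level and the highest levels of Wbp2, Dyrk1a, Dyrk2, Dyrk3 and Hipk2. Hipk1 and Dcaf7 were lowest there, and Hipk3 was lowest in library 3. This is an order over 3 libraries, noticed after the values were seen, with no test.

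The HIPK genes encode homeodomain-interacting protein kinases, nuclear kinases that act on p53 and on regulators of Wnt and TGF-beta signalling. Hipk3 (chromosome 2, 104426481 to 104494446, minus strand) was the highest of them, at 12.4, 14.9 and 12.3 FPKM in Ad-Dyrk1b libraries 1, 2 and 3, and 13.5, 15.6 and 13.8 FPKM in Ad-EGFP libraries 1, 2 and 3. Hipk1 (chromosome 3, 103739815 to 103791563, minus strand) stood at 7.63, 9.68 and 7.96 FPKM and at 8.65, 11.5 and 8.64 FPKM in the same order. Both were highest in library 2 of each group, and both groups overlapped. The log2 fold changes were -0.03 ± 0.12 for Hipk3 (95% interval -0.29 to 0.23, edgeR FDR = 0.899) and -0.09 ± 0.14 for Hipk1 (95% interval -0.41 to 0.23, edgeR FDR = 0.730).

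Hipk2 (chromosome 6, 38694390 to 38876165, minus strand), the member of the family best known for activating p53 after DNA damage, was the lowest of the 3. It stood at 1.16, 0.950 and 0.830 FPKM in Ad-Dyrk1b libraries 1, 2 and 3, and at 0.790, 0.710 and 0.550 FPKM in Ad-EGFP libraries 1, 2 and 3. In FPKM the groups did not overlap, but in CPM scaled by TMM they did, with 5.11 in Ad-Dyrk1b library 3 and 5.60 in Ad-EGFP library 1. The lengths implied for Hipk2 ran from 5929 to 6203 bases in Ad-Dyrk1b and from 5876 to 7647 bases in Ad-EGFP libraries. Its log2 fold change of 0.39 ± 0.24 was not called (95% interval -0.13 to 0.92, edgeR FDR = 0.312). Without Ad-EGFP library 3, the lowest control, the value was 0.17 (edgeR FDR = 0.680). The 3 HIPK genes summed to 22.6 ± 2.57 FPKM in Ad-Dyrk1b against 24.6 ± 2.80 FPKM in Ad-EGFP (SD, n = 3 each; exact two-sided permutation test, p = 0.5).

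Dcaf7, the adaptor gene (chromosome 11, 106036872 to 106059324, plus strand), stood at 5.07, 5.21 and 5.09 FPKM in Ad-Dyrk1b libraries 1, 2 and 3, and at 5.41, 6.10 and 5.44 FPKM in Ad-EGFP libraries 1, 2 and 3. All Ad-Dyrk1b libraries were lower in FPKM, and the groups overlapped in TMM-scaled CPM. The log2 fold change was -0.06 ± 0.11, with a 95% interval of -0.29 to 0.18, and it was not called (edgeR FDR = 0.776). Exons of Dcaf7, Dyrk2 and Hipk1 overlap noncoding or unclassified genes on the opposite strand, and those of Hipk3 overlap a microRNA gene on its own strand. The labels state no strand setting, so reads of these overlaps cannot be told apart.

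Proteins known to work with these kinases were read from lists. Of 18 tested genes for proteins that bind, fold or activate DYRK1 kinases, 1 was called higher and 1 lower, with a median log2 fold change of 0.18. Over all tested genes 7.36% were called higher and 4.81% lower, so these counts are near the background. Rnf169, a ubiquitin ligase gene whose protein acts at DNA breaks and binds DYRK1A, stood at 6.77, 7.08 and 7.45 FPKM in Ad-Dyrk1b against 10.9, 12.6 and 11.7 FPKM in Ad-EGFP libraries 1, 2 and 3. It fell by 0.64 ± 0.10 on the log2 scale (edgeR FDR = 0.00188). Fam53b, of a family whose members bind DYRK1 kinases, stood at 8.71, 8.04 and 8.62 FPKM in Ad-Dyrk1b against 6.80, 6.09 and 6.19 FPKM in Ad-EGFP libraries 1, 2 and 3. It rose by 0.52 ± 0.10 (edgeR FDR = 0.00706), a call lost with limma-trend on log2(FPKM + 1) (limma FDR = 0.0566). For both genes the groups did not overlap.

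Of 28 tested genes for reported DYRK substrates, 3 rose and 3 fell (all tested genes: 7.36% higher, 4.81% lower), with a median of -0.05. With library totals as the scaling 1 was called higher and 5 lower, and limma-trend on log2(FPKM + 1) called 1 higher. The 4 with the smallest p hold regulators of the cell cycle and an enzyme of glycogen synthesis. Cdkn1a, which encodes the cell cycle inhibitor p21, stood at 79.0, 78.3 and 73.7 FPKM in Ad-Dyrk1b against 123, 142 and 150 FPKM in Ad-EGFP libraries 1, 2 and 3. It fell by 0.75 ± 0.11 (edgeR FDR = 0.000931). Ccnd3, which encodes cyclin D3, stood at 46.0, 42.6 and 46.2 FPKM against 33.9, 31.2 and 34.1 FPKM and rose by 0.49 ± 0.10 (edgeR FDR = 0.00686). Ccnd1, which encodes cyclin D1, a protein that DYRK1B marks for degradation, stood at 6.20, 5.51 and 4.08 FPKM against 8.15, 7.71 and 8.88 FPKM. Ccnd1 fell by 0.56 ± 0.14 (edgeR FDR = 0.0245), a call lost without Ad-Dyrk1b library 3, Ad-EGFP library 1 or Ad-EGFP library 3 (edgeR FDR = 0.0690, 0.0629 and 0.0808, lowest 0.0284 with 1 library left out). Gys2, which encodes the liver glycogen synthase, stood at 31.7, 27.1 and 36.2 FPKM against 54.1, 55.7 and 47.0 FPKM and fell (log2 fold change -0.61 ± 0.13, edgeR FDR = 0.0103). In all 4 genes the groups did not overlap. App, which encodes the amyloid precursor protein and is named here with its values known, also rose (0.46 ± 0.12, edgeR FDR = 0.0280). With 1 library left out, App was called only without Ad-Dyrk1b library 1 or Ad-EGFP library 2 (edgeR FDR = 0.0182 to 0.114). Exons of Ccnd1 and Ccnd3 overlap another protein-coding gene on the opposite strand, so their counts are uncertain without a stated strand setting.

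DREAM is a cell cycle repressor whose assembly needs DYRK1A, and its list held genes of its subunits and Mybl2. Of these 12 tested genes 1 fell, where 4.81% of all tested genes did, with a median of -0.14. A count of 1 does not set the list apart from the background, and it was 2 with library totals or the replicate block. That gene, Rbl1, encodes the pocket protein p107 and fell by 0.50 ± 0.13 (edgeR FDR = 0.0250). Among the fits that left out 1 library, its call was kept only without Ad-EGFP library 2 or 3 (edgeR FDR = 0.0356 to 0.105).

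None of 13 tested WBP2 partners and TEAD factors was called by edgeR with TMM scaling, DESeq2 or limma-voom, with 2 higher and 2 lower at an unadjusted p under 0.05. With library totals as the scaling in edgeR, and with limma-trend on log2(FPKM + 1), 1 was called lower. The nearest to a call was Tead3, a gene of the TEAD factors through which YAP and TAZ act, with 76, 76 and 83 counts in Ad-Dyrk1b against 112, 132 and 115 counts in Ad-EGFP libraries 1, 2 and 3. Its groups did not overlap, and its log2 fold change was -0.63 ± 0.20 (edgeR FDR = 0.0536). Wwtr1, which encodes TAZ, had a log2 fold change of 0.11 (edgeR FDR = 0.577), and Yap1 had -0.25 (edgeR FDR = 0.168). Of 10 tested YAP and TAZ target genes edgeR called 0, with 2 higher and 1 lower at an unadjusted p under 0.05, while DESeq2 called 1 higher and limma-voom 0. Without Ad-EGFP library 2, edgeR called 1 target gene higher. Of the 4 other tested genes named for WW-domain binding, edgeR with TMM scaling, DESeq2 and limma-voom called 0, with 2 lower at an unadjusted p under 0.05. With library totals as the scaling, edgeR called 1 of the 4 lower.

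Of 16 tested HIPK partners 1 rose and 1 fell, with a median of 0.02, where 7.36% of all tested genes were called higher and 4.81% lower. These counts too are near the background. DESeq2, limma-voom, limma-trend on log2(FPKM + 1), edgeR with library totals and edgeR with the replicate block called 2 lower. The lowest log2 fold change was that of Trp53inp1, a stress-response gene that p53 induces, at -1.14 ± 0.32 and not called (edgeR FDR = 0.0665). It stood at 33.9, 55.1 and 28.5 FPKM in Ad-Dyrk1b against 77.8, 124 and 75.8 FPKM in Ad-EGFP libraries 1, 2 and 3, with no overlap. Mdm2, which encodes the ubiquitin ligase of p53, fell by 0.40 ± 0.10 (edgeR FDR = 0.0233), and with 1 library left out its call was kept only without Ad-EGFP library 3 (edgeR FDR = 0.0274 to 0.101). Hmga1, a chromatin protein gene, rose by 0.48 ± 0.13 (edgeR FDR = 0.0286), and its call was kept only without Ad-Dyrk1b library 2 (edgeR FDR = 0.0181 to 0.102). Hmga1 was also lost with library totals as the scaling (edgeR FDR = 0.0629), and its exons overlap a protein-coding gene on the opposite strand.

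Among 7 tested kinases of the wider CMGC group, 2 of the CDC-like kinases that phosphorylate splicing factors fell, where 4.81% of all tested genes did, with a median of -0.07 over the list. Clk1 stood at 28.5, 30.9 and 32.4 FPKM in Ad-Dyrk1b against 41.4, 41.7 and 48.9 FPKM in Ad-EGFP libraries 1, 2 and 3, a fall of 0.44 ± 0.11 on the log2 scale (edgeR FDR = 0.0240). Clk4 stood at 17.3, 14.7 and 15.3 FPKM against 24.1, 21.2 and 23.8 FPKM and fell by 0.46 ± 0.11 (edgeR FDR = 0.0201). The groups of both genes did not overlap. The call for Clk1 was lost without Ad-Dyrk1b library 1, Ad-EGFP library 1 or Ad-EGFP library 3 (edgeR FDR = 0.0872, 0.0516 and 0.0889, lowest 0.0290). That for Clk4 was kept only without Ad-EGFP library 2 (edgeR FDR = 0.0167 to 0.0777).

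The genes whose log2 CPM over the 6 libraries was most like that of Dyrk1b, among 11033 genes with a mean of 1 FPKM or more, were Glrx (a glutaredoxin gene), Mfsd4b1 (a solute transporter gene) and Ces3a (a carboxylesterase gene), with Pearson correlations of 0.9996, 0.998 and 0.998. Their log2 fold changes were 0.60, 1.26 and 1.71, all smaller than that of Dyrk1b. For Wbp2 the genes most like it were Mark3 (a kinase gene), Taf7 (a TFIID subunit gene) and Maz (a zinc finger factor gene), with correlations of 0.998, 0.997 and 0.997 and log2 fold changes of -0.19, -0.45 and -0.43. The 6 libraries form 2 groups, so the correlations hold the split between them as well as any shared order within a group. In FPKM, Taf7 and Maz had the library order of Wbp2 in both groups. Mark3 had the order of Wbp2, and Glrx that of Dyrk1b, in the control group only. Ces3a and Mfsd4b1 had their lowest control level in library 3 and Dyrk1b in library 1. These values are a description and carry no p.

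Markers of liver cell types were read as RNA levels, which do not separate the number of cells from the level per cell. Of 7 hepatocyte markers 0 were called, and their summed level was 32400 to 39300 FPKM in Ad-Dyrk1b against 39200 to 41600 FPKM in Ad-EGFP. Most of that sum was Alb (mean 28810 against 32880 FPKM). Serpina1c (mean 1135 against 1470 FPKM) and Hnf4a (mean 106 against 132 FPKM) were lower in all Ad-Dyrk1b libraries. Alb, Apoa1, Ttr, Tat and Fgb overlapped, and the means of Tat and Fgb were higher in Ad-Dyrk1b. Of 6 erythroid markers 0 were called, and their sum was 1390 to 5750 FPKM in Ad-Dyrk1b against 822 to 1370 FPKM in Ad-EGFP, with the highest value in Ad-Dyrk1b library 3. The globin genes Hbb-bs and Hbb-bt were apart between groups, while Hba-a1, Hba-a2, Alas2 and Slc4a1 overlapped. T and NK lymphocyte markers summed to 22.2 to 32.2 FPKM against 13.6 to 20.0 FPKM, and 1 of 7 was called higher, the granzyme gene Gzmb (mean 11.7 against 5.61 FPKM). Gzmb had the highest FPKM of the 7 in every library, so it weighs most in that sum. Of the other lymphocyte markers Trac was apart between groups, and Cd3e, Cd3d, Cd8a, Nkg7 and Klrb1c overlapped. Each of these overlapping markers was lower in Ad-Dyrk1b library 2 than in Ad-EGFP library 2. Bile duct markers summed to 219 to 300 FPKM against 138 to 172 FPKM, and nearly all of that sum was the 1 of 5 called higher, the secreted phosphoprotein gene Spp1 (mean 257 against 152 FPKM). Among the other 4, Sox9 was apart and not called, Krt19, Krt7 and Epcam overlapped, and the mean of Epcam was lower in Ad-Dyrk1b (2.63 against 3.04 FPKM). Macrophage, endothelial and stellate cell markers overlapped between groups, with 0 called. Skeletal muscle markers summed to 0.790 to 1.70 FPKM in all libraries. The part of the marker levels in the level of Wbp2 was not tested.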

How the data were processed

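Total counts per library ranged from 17326516 to 20024888. For each gene and library the deposited table gave a count, always a whole number, and the authors' FPKM value, per the file headers, which do not say whether the counts are tallies or rounded estimates, and also mean FPKM per group with its log2 ratio, and the authors' p-value and FDR. Per the submitters' processing notes, the build was mm10 and DESeq2 was used. Neither source names an aligner or counter. Following the labels' protocols, mRNA libraries were made with a NEBNext Ultra kit.

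Counts were compared with edgeR 4.0.16 (R 4.3.3): filterByExpr with a minimum count of 10 and a minimum total of 15, TMM scaling and a two-sided robust quasi-likelihood F-test. SE is the log2 fold change over the root of F. The fit was tested on simulated data with known changes, 50 genes at each size. It recovered 38% of the 1.5-fold changes, 78% at 2-fold, 100% at 4-fold and 98% at 8-fold. Of the genes it called there, 8.72% were false. Alternatives were DESeq2 1.42.0, limma 3.58.1 (voom, and trend on log2 of FPKM plus 1 or 0.1), other scalings, no filter, a replicate block and each library left out. Positions come from GENCODE M21.

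The members, lists and tests were chosen with earlier results of these data known. Named genes were the 10 members, up to 4 called genes per list with the smallest p, the 6 tested neighbours of Dyrk1b, and the 3 genes most like Dyrk1b and Wbp2 each. Wwtr1, Yap1, Tead3, Trp53inp1, App and the marker genes lie outside this rule and were named after their values were seen. Some genes of the lists and 1 list are not reported here.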

Additional observations from a re-analysis of the deposited data

How the results depend on the processing

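Dyrk1b was called higher and Wbp2 lower in all 14 alternatives run for each, with log2 fold changes from 4.02 to 4.71 and from -0.62 to -0.48, and highest adjusted p-values of 0.000513 and 0.0259. Members called stayed at 1 higher and 1 lower in every alternative. The other 7 tested members were called in none of their alternatives. The sign of Dyrk2 changed in 1 alternative, that of Hipk1 in 2 and that of Hipk3 in 3. The differences in summed FPKM kept their sign, from -4.05 to -2.40 for the other DYRK genes and from -3.50 to -0.395 for the HIPK genes with 1 library left out. FPKM is scaled by library totals only, without TMM. The median log2 fold change over all genes was -0.0636 with limma-trend on log2(FPKM + 1). It was -0.0896 with library totals in edgeR, against -0.00498 with TMM. Over all genes, 566 were higher with limma-trend on log2(FPKM + 1) in place of 972, and 1051 were lower with library totals as the scaling in place of 635. The cause was not tested. With 1 library left out 612 to 800 genes were higher and 294 to 461 lower, in fits with fewer samples. Whether the replicate numbers pair the samples could not be settled. Deviations from the group means correlated at only 0.0245, 0.172 and 0.108 for equal numbers, and at -0.207 to 0.0845 for unequal numbers. The equal number correlated best for Ad-Dyrk1b libraries 2 and 3, while Ad-Dyrk1b library 1 correlated best with Ad-EGFP library 3 (0.0845). With a replicate block 1109 genes were higher, Wbp2 had -0.54 (edgeR FDR = 0.00537) and Dyrk1b had 4.45 (edgeR FDR = 4.49e-07). The 95% intervals of members not called differed in width. They reached down to -0.85 for Dyrk3 and up to 0.92 for Hipk2, while that of Hipk3 ran only from -0.29 to 0.23. Which changes a missing call leaves possible therefore differs by gene.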
